A study of Mus musculus with 18 samples.

Results

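The p53 pathway and the senescence programme of mouse embryonic fibroblasts (MEFs) were followed through 10 genes named for their known roles: Trp53, Mdm2, Cdkn1a, Cdkn2a, Cdkn2b, Ccng1, Bax, Sesn2, Gdf15 and Lmnb1. These are 10 of the 55487 genes with a row in the count table. The rule names them and uses no threshold on their values, and all 10 passed the filter on low counts. They were chosen with earlier results of these data known. MEFs are connective tissue cells cultured from dissociated mouse embryos. The cells were plated to confluence in serum-containing medium and kept for 24 h with no added uracil (control, 0 µM), 10 µM uracil or 30 µM uracil, uracil being the nucleobase that uridine phosphorylase-1 releases from uridine. Each dose had 6 libraries of total RNA depleted of ribosomal RNA, and every dose carries the replicate numbers 1 to 6. The study calls them biological replicates, and the labels do not say whether libraries with the same number share a culture. The mouse strain, the passage and whether the cells were immortalised are not given in the sources used here.

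p53, the protein made from Trp53, is a transcription factor that the ubiquitin ligase MDM2 keeps scarce and that becomes stable when DNA is damaged, when nucleotides run short or when ribosome assembly is disturbed. It then raises the transcription of genes that stop the cell cycle, favour apoptosis or temper metabolic stress, and of Mdm2 itself. MEFs are well known for senescence in culture, in which the Cdkn2a and Cdkn2b products accumulate with passage and lamin B1 declines. Much of the regulation of p53 acts on the protein, which RNA counts do not show.

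A p53 response element is made of a pair of decamers called half-sites, and the upstream sequences of the p53 targets are shown because these genes are read here as the output of p53. In RefSeq promoter sequences on GRCm38.p6, the 250 bases before the most upstream listed start of 9 of the 10 genes (Lmnb1 was not searched) were scanned for the half-site consensus with no mismatch. The consensus reads the same on both strands, so a search of one strand covers both. Of the 9 genes, 5 held a match (Trp53, Mdm2, Cdkn1a, Ccng1 and Bax), while 7.13% of all 32851 upstream windows of the same length held one. The sequences of 4 of them follow, 5′ to 3′ on the strand of the gene and ending at the last base before the start, with half-site matches in capitals. The Mdm2 window is chr10:117710759-117711008 (minus strand), that of Cdkn1a is chr17:29090729-29090978 (plus strand), that of Ccng1 is chr11:40755287-40755536 (minus strand) and that of Bax is chr7:45466899-45467148 (minus strand).
Mdm2: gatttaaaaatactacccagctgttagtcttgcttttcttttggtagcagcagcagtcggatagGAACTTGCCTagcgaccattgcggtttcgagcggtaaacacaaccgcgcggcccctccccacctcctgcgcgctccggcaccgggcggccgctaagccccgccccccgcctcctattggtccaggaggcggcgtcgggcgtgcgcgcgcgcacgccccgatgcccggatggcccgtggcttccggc
Cdkn1a: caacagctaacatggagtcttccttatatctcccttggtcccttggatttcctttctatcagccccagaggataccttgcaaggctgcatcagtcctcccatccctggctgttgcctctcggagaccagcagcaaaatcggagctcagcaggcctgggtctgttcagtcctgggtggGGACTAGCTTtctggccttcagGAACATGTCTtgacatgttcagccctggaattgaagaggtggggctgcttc
Ccng1: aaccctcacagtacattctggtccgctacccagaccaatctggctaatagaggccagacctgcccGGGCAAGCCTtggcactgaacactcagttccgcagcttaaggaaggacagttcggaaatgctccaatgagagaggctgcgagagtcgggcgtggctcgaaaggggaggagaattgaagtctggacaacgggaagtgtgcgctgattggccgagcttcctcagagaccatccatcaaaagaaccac
Bax: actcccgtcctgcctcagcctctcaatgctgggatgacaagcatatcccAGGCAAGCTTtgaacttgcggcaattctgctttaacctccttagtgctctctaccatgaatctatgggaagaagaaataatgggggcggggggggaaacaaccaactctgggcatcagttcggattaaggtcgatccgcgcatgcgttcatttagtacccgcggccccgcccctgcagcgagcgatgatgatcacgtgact
The match in Mdm2 (GAACTTGCCT) began 186 bases before the start and that in Ccng1 (GGGCAAGCCT) 185 bases before it. Cdkn1a held 2 matches, GGACTAGCTT beginning 73 bases and GAACATGTCT beginning 51 bases before the start. This start is the more upstream of 2 listed for Cdkn1a, and the distances do not refer to the other one. The match in Bax (AGGCAAGCTT) began 201 bases and the one in Trp53 (GGACTTGCCC) 75 bases before the start. The windows of Cdkn2a, Cdkn2b, Sesn2 and Gdf15 held no match to these letters. Cdkn2a and Gdf15 likewise have 2 listed windows, of which the more upstream was taken. A match is a description of the sequence and not a measured binding site.

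Gene positions are given on GRCm39. Trp53 (ENSMUSG00000059552, chromosome 11, 69469669 to 69482701, plus strand) shares exon sequence with Wrap53 and the non-coding gene Gm57392 on the other strand. Mdm2 (ENSMUSG00000020184) lies on chromosome 10 from 117524780 to 117546730 on the minus strand. Cdkn1a (ENSMUSG00000023067, chromosome 17, 29309936 to 29319701, plus strand) overlaps the non-coding gene Gm64878 and the unclassified transcript Dino on the other strand. Cdkn2a (ENSMUSG00000044303, 89192708 to 89212890) and Cdkn2b (ENSMUSG00000073802, 89223204 to 89229276) are neighbours on the minus strand of chromosome 4, and Sesn2 (ENSMUSG00000028893, 132219335 to 132237815) is on the minus strand of the same chromosome. Ccng1 (ENSMUSG00000020326, chromosome 11, 40639377 to 40646148, minus strand) overlaps Nudcd2 on the other strand. Bax (ENSMUSG00000003873, chromosome 7, 45111015 to 45116325, minus strand) shares exon sequence with Gm45808 on its own strand. Gdf15 (ENSMUSG00000038508) lies on chromosome 8 from 71082038 to 71091537 on the minus strand, and Lmnb1 (ENSMUSG00000024590) lies on chromosome 18, where its exons overlap those of Marchf3 on the other strand. The libraries were stranded, but the strand setting of the counting is not given in the sources used here, so reads of these overlapping pairs cannot be told apart with certainty. A processed copy of Trp53 is also annotated, and pairs that fit both would not have been counted.

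The fibroblast label was checked against marker genes. All 8 fibroblast markers (Col1a1, Col1a2, Col3a1, Pdgfra, Pdgfrb, Thy1, Vim and Dcn) averaged at least 1 CPM (counts scaled to a common library size), and their summed level was 25238 to 56983 CPM per library. The endothelial markers Cdh5 and Tie1, the leukocyte and macrophage markers Ptprc and Adgre1, 4 of 4 skeletal muscle markers and the neural crest marker Sox10 averaged under 0.1 CPM. In the same lists, 1 of 4 endothelial, 2 of 4 macrophage and 1 of 3 neural markers averaged at least 1 CPM, and the lists summed to 5.34 to 8.60, 1.08 to 3.07 and 18.8 to 46.2 CPM per library. In 15 libraries 1.72% to 3.59% of read pairs were unaligned and 11.6 to 20.8 M pairs were counted in genes. Control replicate 1 (54.2% unaligned, 3.96 M counts), 30 µM replicate 6 (37.9%, 7.39 M) and 10 µM replicate 6 (5.24%, 14.7 M) stood apart. The study removed 1 vehicle and 1 30 µM library for human RNA, and the labels do not say which. Results are therefore given for all 18 libraries and again for the 15, with the 16 that remain without the first 2 named where they differ.

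Once divided by exon length, the levels of the members differed widely. Per kilobase of exon, in the 15 libraries, Ccng1 (cyclin G1, a p53 target that acts on MDM2 through a phosphatase) was the most abundant at 150.3 ± 16.96 CPM per kb (SD, n = 15). The transcripts of the Cdkn2a locus followed at 80.8 ± 10.5 CPM per kb, then Bax at 62.8 ± 3.15 and Cdkn2b at 51.2 ± 3.28 CPM per kb. The stress gene Sesn2 (27.0 ± 1.43 CPM per kb) and Lmnb1 (25.8 ± 2.88) were lower. Mdm2 (19.0 ± 1.61), Cdkn1a (15.5 ± 2.18) and Trp53 itself (11.7 ± 1.68 CPM per kb) were lower again. Gdf15, which encodes a secreted stress cytokine, was close to the floor at 0.769 ± 0.316 CPM per kb and had 5 to 52 counts per library. Between neighbours in this order, the libraries of Cdkn2a and Bax, Bax and Cdkn2b, Sesn2 and Lmnb1, Mdm2 and Cdkn1a, and Cdkn1a and Trp53 overlapped, and the other neighbouring pairs did not. The Cdkn2a locus gives p16INK4a and p19ARF transcripts, which the gene-level counts add together. Each level was divided by the union of all annotated exons, so the order depends on that length. It was 1172 bp for Cdkn2a, 6045 bp for Cdkn1a, 7379 bp for Trp53 and 7709 bp for Mdm2. In CPM before this division, Cdkn2a (72.6 to 105), Cdkn1a (75.3 to 117) and Trp53 (62.2 to 106) overlapped in the 15 libraries.

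No member of the pathway was called as different between uracil doses. By edgeR's quasi-likelihood test, adjusted by Benjamini-Hochberg over all 13865 genes tested, 0 of the 10 genes were called at 10 µM against control, at 30 µM against control or at 30 µM against 10 µM, against a background of 0% of all genes in each comparison. The lowest adjusted p among the 10 genes was 0.931, for Bax at 30 µM. Over all genes, 96, 595 and 323 had an unadjusted p under 0.05 in the 3 comparisons in this order (91, 614 and 377 with DESeq2, which also called 0), and 0 of the 10 were among them with either tool. The 3 comparisons share libraries. With replicate number as a block, edgeR again called 0 genes. Its unadjusted p at 30 µM against control was then under 0.05 for Ccng1 (0.0389) and Bax (0.0484). At 30 µM against 10 µM it was under 0.05 for Gdf15 (0.0168). Over all 13865 genes, 937 and 588 were under 0.05 in these comparisons.

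For p53 and its regulator the doses overlapped. Trp53 ran from 76.9 to 106 CPM (median 100.2) in control libraries, from 62.2 to 119 CPM (median 84.1) in those given 10 µM and from 77.0 to 154 CPM (median 82.5) in those given 30 µM. The groups overlapped, and the highest value of both treated groups came from replicate 6, one of the libraries that stood apart. At 10 µM its log2 fold change against control was −0.18 ± 0.16 (SE, with a 95% interval of −0.52 to 0.17), and at 30 µM it was −0.0071 ± 0.17 (−0.35 to 0.34). In the 16 libraries, which keep 10 µM replicate 6, it was −0.17 ± 0.13 (−0.45 to 0.12) at 10 µM and −0.18 ± 0.14 (−0.48 to 0.12) at 30 µM. In the 15 libraries it was −0.29 ± 0.11 (−0.52 to −0.069) at 10 µM, with an unadjusted p of 0.0137 and an adjusted p of 0.998 by edgeR, when 656 of 13888 genes had an unadjusted p under 0.05. The interval at 10 µM thus left out 0 only when that library was also removed. The control mean was then 95.8 ± 11.5 CPM, against 78.5 ± 10.1 CPM with the lower and 84.7 ± 10.6 CPM with the higher dose (SD, n = 5 libraries a group). The higher dose thus lay closer to control than the lower one in the 15 libraries, but not in the 16. At 30 µM the log2 fold change in the 15 libraries was −0.18 ± 0.11 (−0.41 to 0.039).

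Mdm2 had the smallest log2 fold change of the p53 targets at both doses with all libraries. Its range was 125 to 164 CPM (median 146) without uracil, 134 to 158 CPM (median 152) with the lower dose and 129.7 to 159 CPM (median 153) with the higher one, so the groups overlapped almost wholly. The log2 fold change was 0.017 ± 0.074 (−0.14 to 0.17) for 10 µM and 0.0052 ± 0.075 (−0.15 to 0.16) for 30 µM. In the 15 libraries it was −0.014 and −0.029, so its sign turned while its size stayed small.

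Among the inhibitors of cyclin-dependent kinases, Cdkn1a (p21, the main effector of p53 arrest) had 79.2 to 126 CPM (median 101) without uracil, 75.3 to 107 CPM (median 96.4) with the lower dose and 79.3 to 203 CPM (median 96.3) with the higher one. One library, 30 µM replicate 6, was at 203 CPM while the other 5 at that dose lay between 79.3 and 103 CPM. Its log2 fold change at 30 µM was 0.13 ± 0.19 (−0.27 to 0.53) with all libraries, −0.12 without that library and −0.063 ± 0.12 (−0.32 to 0.20) in the 15. Cdkn2a ranged over 72.6 to 105 CPM (median 91.0), 63.7 to 105 CPM (median 99.6) and 84.0 to 105 CPM (median 98.5) in the order of dose. Cdkn2b (p15INK4b, which like p16INK4a blocks CDK4 and CDK6) had 93.1 to 145 CPM (median 140.1), 126 to 148 CPM (median 135) and 128 to 158 CPM (median 141) in the same order. The groups overlapped for both genes, and their log2 fold changes were 0.023 ± 0.12 and 0.049 ± 0.089 at 10 µM and 0.12 ± 0.12 and 0.12 ± 0.089 at 30 µM. In the 15 libraries they were 0.083 ± 0.12 and −0.023 ± 0.059 at 10 µM and 0.10 ± 0.12 and 0.015 ± 0.060 at 30 µM, and Cdkn2b at 30 µM was 0.037 without control replicate 1 alone.

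The targets linked to arrest, death and stress likewise overlapped between doses. In the order of dose, Ccng1 had 568 to 815 CPM (median 689), 585 to 743 CPM (median 659.9) and 441 to 715 CPM (median 666), with a log2 fold change of −0.15 ± 0.12 (−0.40 to 0.11) at the higher dose and −0.016 ± 0.10 in the 15 libraries. Bax, which opens the outer mitochondrial membrane in apoptosis, had 71.3 to 120.2 CPM (median 116), 105 to 125 CPM (median 112) and 111 to 149 CPM (median 122). Its lowest value was control replicate 1 and its highest 30 µM replicate 6, and the log2 fold change at 30 µM moved from 0.17 ± 0.10 (−0.045 to 0.38) with all libraries to 0.011 ± 0.049 (−0.092 to 0.11) in the 15.

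Sesn2, which restrains mTORC1 when amino acids are scarce, had 104 to 129 CPM (median 121), 115 to 139.6 CPM (median 119) and 118 to 153 CPM (median 123) in that order. The same pair of libraries held its lowest and highest values. Its log2 fold change at 30 µM was 0.095 ± 0.072 (−0.055 to 0.25) with all libraries and −0.0052 ± 0.052 in the 15. Gdf15 had 0.585 to 2.80 CPM (median 1.52), 0.694 to 2.40 CPM (median 1.21) and 1.27 to 2.98 CPM (median 2.02), on 5 to 52 counts per library, with a log2 fold change of −0.26 ± 0.34 (−0.97 to 0.45) at 10 µM and 0.27 ± 0.34 (−0.43 to 0.98) at 30 µM. Lmnb1, the nuclear lamina gene, had 82.4 to 119.7 CPM (median 95.6), 84.1 to 116 CPM (median 96.0) and 80.0 to 186 CPM (median 89.1). At 30 µM its log2 fold change was 0.16 ± 0.17 (−0.20 to 0.51) with all libraries and −0.0064 ± 0.096 (−0.21 to 0.20) in the 15.

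With all 18 libraries the log2 fold change at 30 µM was above 0 in 8 of the 10 genes, with a median of 0.12 against 0.012 over all genes tested. In the 15 libraries it was above 0 in 4 of 10, with a median of −0.0058 against −0.0035. At 10 µM the medians were 0.016 (all genes 0.0059) with 18 libraries and −0.018 (all genes −0.0010) with 15. Set beside the control of the same number, the 30 µM library was higher in 5 of 6 numbers for Cdkn2b, Bax and Sesn2, and in 3 of the 4 numbers with all doses among the 15. For Ccng1 it was higher in 1 of 6 numbers.

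**Figure D1:**
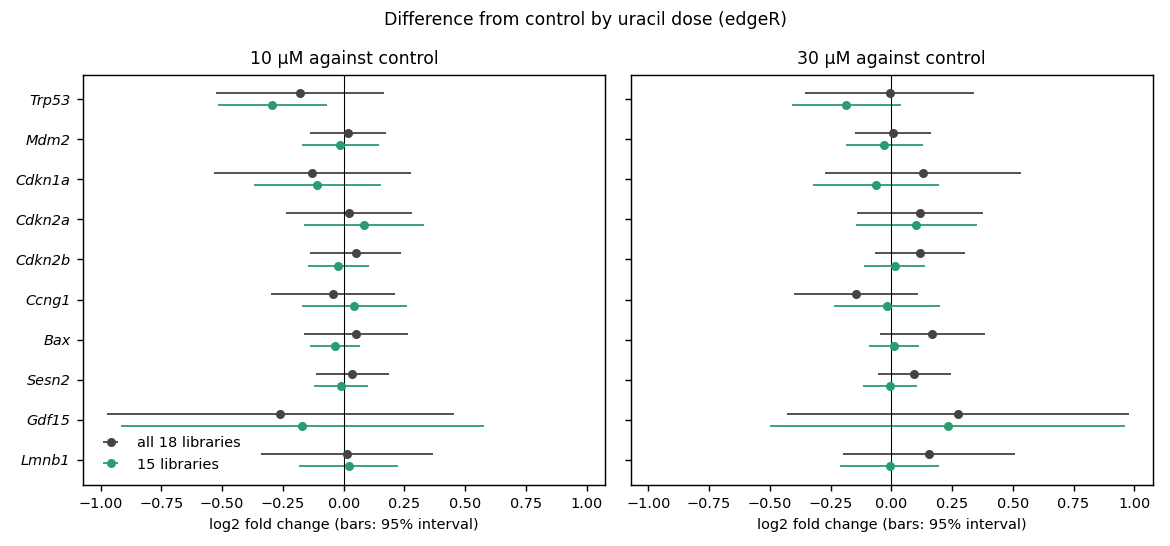
Log2 fold change of each gene against control at 10 µM (left) and 30 µM uracil (right) by edgeR, with bars for the 95% interval, for all 18 libraries (dark) and for the 15 libraries (green). All intervals include 0 except that of Trp53 at 10 µM in the 15 libraries (−0.52 to −0.069), and the intervals of Gdf15 are the widest.

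The replicate number, in contrast, separated several of these genes. By edgeR's quasi-likelihood F test of number in a model with dose, 4 of the 10 genes were called against a background of 12.6% of all genes tested (1745 of 13865). These were Ccng1 (adjusted p 0.00828), Gdf15 (0.0109), Cdkn2a (0.0258) and Mdm2 (0.0292). In the 16 libraries 6 of 10 were called against a background of 23.6%, and in the 15 libraries 6 of 10 against 20.8%, with Cdkn1a (adjusted p 0.00382) and Lmnb1 (0.0120) added in the 15. Trp53, Cdkn2b, Bax and Sesn2 were not called by edgeR in any of these sets (adjusted p 0.0850 to 0.249 with 18 libraries and 0.0969 to 0.789 with 15). DESeq2's likelihood ratio test called 5 of 10, the same 4 and Trp53 (adjusted p 0.0150), against 2989 of all 13865 genes.

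Ccng1 had the lowest adjusted p of the 10 genes with 18 libraries. In replicate 1 it was 815, 697 and 650.4 CPM in the control, 10 µM and 30 µM libraries, in replicate 2 742, 743 and 714 CPM, and in replicate 3 717, 736 and 715 CPM. In replicate 4 it was 660.3, 623 and 682 CPM, in replicate 5 568, 588 and 494 CPM, and in replicate 6 589, 585 and 441 CPM. All 12 libraries numbered 1 to 4 lay above all 6 libraries numbered 5 and 6, a division drawn after the values were seen. The mean was 733 ± 16.4 CPM in replicate 2 and 539 ± 84.3 CPM in replicate 6 (SD, n = 3 each), a ratio of 1.36.

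Gdf15 was likewise highest in replicates 2 and 3, at a far lower level. It had 2.80, 2.40 and 2.34 CPM in replicate 2, 2.22, 1.85 and 2.98 CPM in replicate 3, and 0.585, 1.02 and 1.27 CPM in replicate 5, in the order control, 10 µM and 30 µM. Replicate 1 had 1.34, 1.39 and 2.03 CPM, replicate 4 had 1.69, 0.964 and 1.55 CPM, and replicate 6 had 1.01, 0.694 and 2.01 CPM. The means of replicates 2 and 5 differed 2.62-fold, the widest ratio of the 10 genes, on 39 to 52 counts per library against 8 to 17.

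Cdkn2a had its lowest means in replicates 5 and 6. Replicates 1, 2 and 3 had 83.1, 105 and 105 CPM, 105, 99.6 and 104 CPM, and 99.6, 103 and 105 CPM in the order of dose. Replicate 4 had 98.8, 99.5 and 89.5 CPM, replicate 5 had 72.6, 73.5 and 84.0 CPM, and replicate 6 had 75.4, 63.7 and 92.9 CPM. In the 15 libraries no value of replicates 5 and 6 (72.6 to 84.0 CPM) reached the lowest of replicates 1 to 4 (89.5 CPM), whereas with all 18 libraries control replicate 1 and 30 µM replicate 6 made the ranges overlap. The neighbouring Cdkn2b was not called, and its mean was 129.99 ± 7.96 CPM in replicate 2 and 145 ± 11.5 CPM in replicate 5 (SD, n = 3 each).

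Mdm2 differed between other numbers. Replicates 1 and 5 were lowest, at 142, 134 and 129.7 CPM and at 125, 138 and 131 CPM, and the 12 libraries of the other numbers lay between 146 and 164 CPM with no overlap. The 3 libraries of replicate 6 agreed to within 0.699 CPM (SD, mean 157 CPM), although 2 of them were among those that stood apart. Cdkn1a had 117, 107 and 103 CPM in replicate 2 and 79.2, 76.7 and 79.3 CPM in replicate 5, with no overlap. Its replicate 6 held 86.1, 105 and 203 CPM, so that the highest mean was that of replicate 6 with 18 libraries (131 CPM) and that of replicate 2 with 15 (109 CPM). Lmnb1 was lowest in replicate 2 at 82.4, 84.1 and 84.5 CPM, and in replicate 5 it had 100.5, 103 and 121 CPM. Both genes were called by number only in the smaller sets of libraries and without control replicate 6 (adjusted p 0.0334 and 0.0250), among the settings run.

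In the 15 libraries replicate number accounted for 91.4% of the variance of log2 CPM in Cdkn2a, 88.3% in Mdm2 and 87.4% in Ccng1, against a median of 51.9% over all genes tested. Dose accounted for 7.28%, 0.518% and 2.74% in these genes and for a median of 10.6% over all genes. Number has 6 levels and dose 3, which favours number when the 2 shares are set side by side. For Trp53 the share for number was 38.9%, under the median of all genes, and that for dose 34.1%, over it. With 18 libraries its share for dose was 8.79%, against a median of 7.91%.

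**Figure D2:**
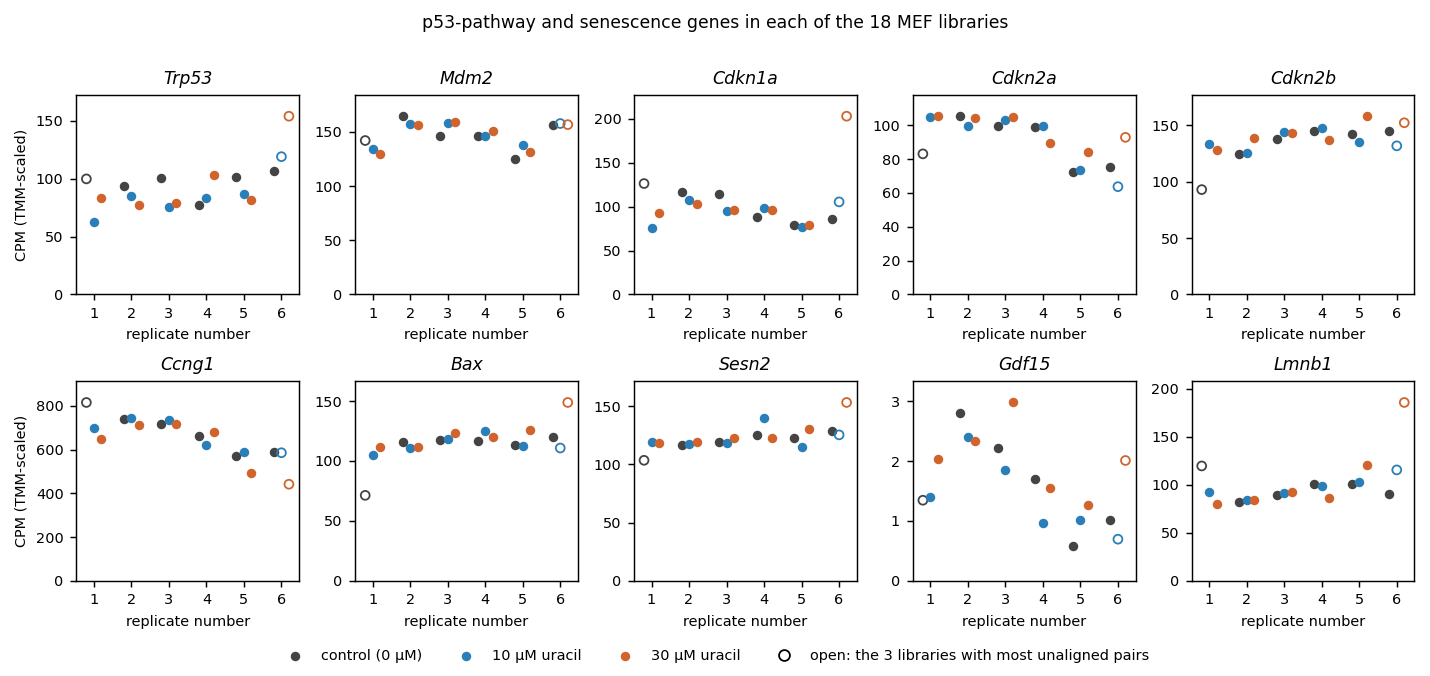
CPM of each of the 10 genes in each of the 18 libraries, against replicate number, with dose by colour and the 3 libraries with most unaligned pairs as open circles. In the filled points (15 libraries) Ccng1, Cdkn2a and Gdf15 are lower in replicates 5 and 6 than in every library of replicates 2 and 3, and 30 µM replicate 6 stands high for Trp53, Cdkn1a, Bax, Sesn2 and Lmnb1.

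**Figure D3:**
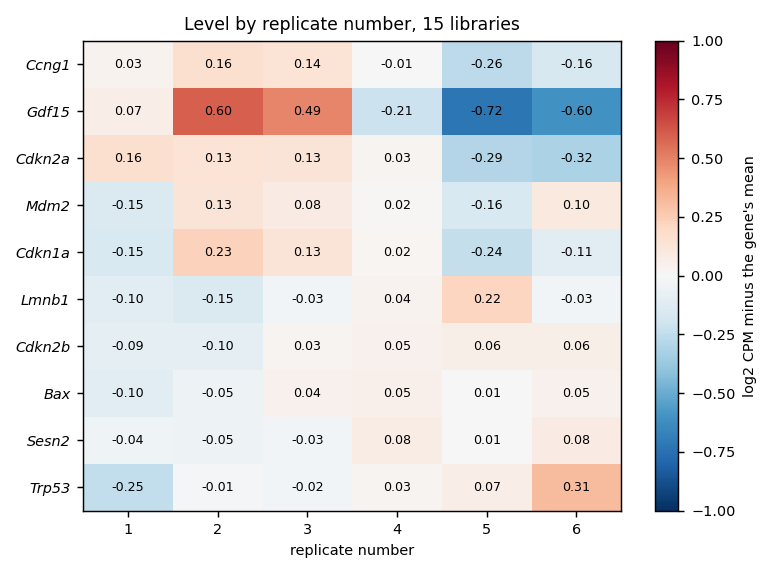
Mean log2 CPM of each gene at each replicate number minus the gene's mean over the 15 libraries, with the value printed in each cell (red higher, blue lower). Gdf15 spans −0.72 to 0.60 and Ccng1 −0.26 to 0.16, while Sesn2 stays between −0.053 and 0.078, and replicate 6 rests on 1 library.

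Other measures moved with the number. The summed level of 4 mesothelial markers (Upk3b, Msln, Wt1 and Lrrn4, all averaging at least 1 CPM) was 27.2 to 47.8 CPM in the libraries of replicates 1 to 3 and 102 to 174 CPM in those of replicates 4 to 6. The summed level of 5 epithelial markers, 2 of which averaged at least 1 CPM, was 4.57 to 7.72 CPM and 15.2 to 34.8 CPM in the same libraries. The share of pairs under the alignment quality limit was 4.79% to 7.17% in replicates 1 to 3 and 7.76% to 13.1% in replicates 4 to 6. Their part in the differences of Ccng1, Gdf15, Cdkn2a and Mdm2 was not tested, and in bulk RNA fewer cells of a type cannot be told apart from less RNA per cell.

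Calls by number depended on single libraries. Ccng1 (adjusted p 0.00247 to 0.0346) and Gdf15 (0.00590 to 0.0395) stayed called when each of the 18 libraries was left out in turn. Cdkn2a lost its call without control replicate 2, 3 or 5, 10 µM replicate 2, 3, 5 or 6, or 30 µM replicate 2, 3 or 5 (adjusted p 0.0551 to 0.113). Mdm2 lost its call without control replicate 2 or 5, 10 µM replicate 1, 2 or 3, or 30 µM replicate 1, 2, 3 or 5 (adjusted p 0.0555 to 0.106). Trp53 was called without control replicate 1 (0.0409) or control replicate 6 (0.0136), and with no filter on low counts (0.0457), a setting in which Mdm2 was not called (0.153). The count over all genes was 1745 with every library, 3498 without control replicate 1 and 3271 without control replicate 6.

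The 3 libraries with most unaligned pairs departed from the 15 in many members at once. In 30 µM replicate 6, 6 of the 10 genes lay outside the range of the 15 libraries, against 61.4% of all genes. Cdkn1a was at 203 CPM (75.3 to 117 in the 15), Lmnb1 at 186 CPM (80.0 to 121), Trp53 at 154 CPM (62.2 to 106), Sesn2 at 153 CPM (115 to 139.6) and Bax at 149 CPM (105 to 126), while Ccng1 was low at 441 CPM (494 to 743). In control replicate 1, 5 of 10 genes were outside, against 63.5% of all genes, with Bax (71.3 CPM), Cdkn2b (93.1 CPM) and Sesn2 (104 CPM) low and Ccng1 (815 CPM) and Cdkn1a (126 CPM) high. In 10 µM replicate 6, 2 of 10 were outside (Trp53 at 119 CPM and Cdkn2a at 63.7 CPM), against 39.0%. The shares in the 10 genes were thus near or below those of the whole transcriptome, and the directions differed between the libraries for Bax, Sesn2 and Ccng1. The part that human RNA may have in these levels was not tested.

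**Figure D4:**
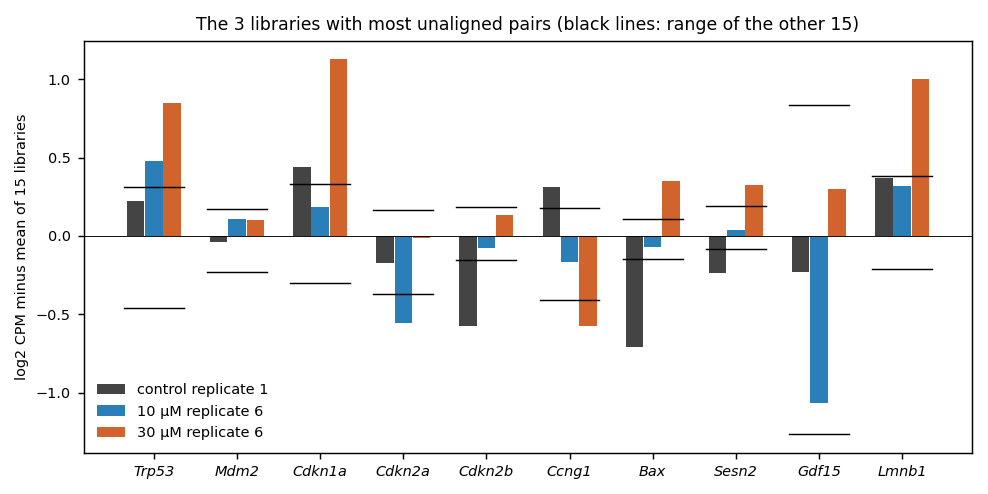
Log2 CPM in each of the 3 libraries with most unaligned pairs minus the mean of the other 15, with black lines for the lowest and highest of the 15. Bars past a line are outside that range, as for Cdkn1a (1.13) and Lmnb1 (1.00) in 30 µM replicate 6 and Bax (−0.71) in control replicate 1.

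Genes of the wider pathway were counted in 8 lists, which were also chosen with earlier results of these data known. Their shares stand beside the 12.6% (18 libraries) and 20.8% (15 libraries) of all genes called by number by edgeR. DESeq2 called 2989 of all 13865 genes by number with 18 libraries. By edgeR 3666 of them had an unadjusted p under 0.05 in that test. With 18 libraries 3 of the 8 lists had no gene called by number and the BCL2 family, at 10%, lay under the share of all genes. With 16 libraries, 17 of 30 other p53 targets and 5 of 15 regulators of p53 were called, against 23.6% of all genes. In that set 4 of 11 repressors of Cdkn2a, 4 of 10 BCL2 family genes and 1 of 20 proliferation genes were called. The other lists had the same counts with 16 libraries as with 15. Of 30 other p53 targets, 10 were called by number with 18 libraries and 12 with 15, (11 by DESeq2 with 18), and 0 by dose, with a median log2 fold change at 30 µM of 0.00041 (all genes 0.012). The antiproliferative gene Btg2 was highest in replicate 2 at 107 ± 1.06 CPM and lowest in replicate 1 at 58.2 ± 5.90 CPM (SD, n = 3 each; adjusted p 1.38e-05). The death receptor gene Fas had 10.1 ± 0.767 CPM in replicate 2 and 3.92 ± 1.03 CPM in replicate 6 (adjusted p 0.000534). Phlda3, a p53-induced inhibitor of AKT, had the lowest p of the list at 30 µM, with a log2 fold change of 0.15 ± 0.083 and an adjusted p of 0.931. Of 15 tested regulators and relatives of p53, 0 were called by number by edgeR with 18 libraries (2 had an unadjusted p under 0.05, and DESeq2 called 3) and 2 with 15. Trp63 had 1.66 ± 0.479 CPM in replicate 1 and 0.629 ± 0.155 CPM in replicate 4 (adjusted p 0.0533 with 18 libraries, 0.0402 with 15). Hipk2, a kinase that phosphorylates p53, was not called (0.161 and 0.218). For the ubiquitin ligase gene Rchy1 the log2 fold change at 30 µM was −0.14 ± 0.060 (adjusted p 0.931).

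Some cell cycle genes around the CDK inhibitors had means that were higher in replicate 5, where Cdkn1a and Cdkn2a were low. Ccne2 and Ccna2 instead had their highest means in replicate 1 with 18 libraries. The CDK inhibitor gene Cdkn2b had its highest mean in replicate 5 (145 CPM), and a link between these levels was not tested. Of 18 other CDK inhibitors and RB-axis genes, 3 were called by number with 18 libraries (16.7%, against 12.6% of all genes) and 6 with 15 (33.3%, against 20.8%). Cdk2 had 44.1 ± 4.97 CPM in replicate 1 and 64.9 ± 2.44 CPM in replicate 5 (adjusted p 0.00227), and Cdk4, the target of p16INK4a, had 484 ± 12.7 CPM in replicate 2 and 616 ± 35.3 CPM in replicate 5 (0.0160). Ccne2, a cyclin of the G1/S transition, had the lowest p of this list at 30 µM, with a log2 fold change of −0.31 ± 0.20 (adjusted p 0.931). Its mean in replicate 5 was below that in replicate 1 (27.4 CPM), and it was not called by number (adjusted p 0.302 by edgeR with 18 libraries). Of 20 proliferation genes, 0 were called by number by edgeR with 18 libraries (3 had an unadjusted p under 0.05, and DESeq2 called 4) and 3 with 15. Over all 13865 genes, 3666 had an unadjusted p under 0.05 by edgeR and DESeq2 called 2989. Mcm2, part of the replicative helicase, had 128 ± 23.8 CPM in replicate 1 and 165 ± 12.2 CPM in replicate 5 (adjusted p 0.0850 with 18 libraries, 0.00255 with 15), and Ccna2 was not called (0.126 and 0.446). The mean of Ccna2 was 152 CPM in replicate 1 and 147 CPM in replicate 5. For Cdc20 the log2 fold change at 30 µM was 0.15 ± 0.071 (adjusted p 0.931). Of 11 tested repressors of the Cdkn2a locus, 0 were called by number by edgeR with 18 libraries (1 had an unadjusted p under 0.05, and DESeq2 called 1) and 3 with 15, with Id1 (adjusted p 0.0632 and 5.61e-05) and Tbx3 (0.203 and 0.00506) leading. The Polycomb gene Bmi1 had a log2 fold change of −0.23 ± 0.093 at 30 µM (adjusted p 0.931).

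Of the 8 lists, other senescence genes and the integrated stress response held the largest shares called by number, with 18 libraries and with 15. Of 17 tested senescence genes, 6 were called with 18 libraries and 11 with 15. Ets1, an activator of the p16INK4a promoter, had 75.2 ± 3.34 CPM in replicate 3 and 54.1 ± 1.74 CPM in replicate 5 (SD, n = 3 each; adjusted p 0.000494). The lamin A gene Lmna had the lowest p of its list at 30 µM, with a log2 fold change of 0.25 ± 0.099 (adjusted p 0.931) and 0.11 in the 15 libraries. Of 17 integrated stress response genes, 8 were called with 18 libraries and 12 with 15. The mitochondrial serine enzyme gene Shmt2 had 218 ± 10.5 CPM in replicate 2 and 363 ± 53.1 CPM in replicate 6 (adjusted p 8.81e-05), and Trib3, a pseudokinase induced by ATF4, had 68.9 ± 2.89 CPM in replicate 1 and 103 ± 14.6 CPM in replicate 6 (0.00119). Phgdh, the entry enzyme of serine synthesis, had a log2 fold change of 0.18 ± 0.11 at 30 µM (adjusted p 0.931). Of 10 tested BCL2 family genes besides Bax, 1 was called with 18 libraries (10%, against 12.6% of all genes) and 3 with 15 (30%, against 20.8%). Bmf had 3.23 ± 0.132 CPM in replicate 3 and 5.77 ± 0.0548 CPM in replicate 5 (adjusted p 0.0106), Bcl2 was not called (0.125 and 0.219), and Bak1 had a log2 fold change of 0.16 ± 0.085 at 30 µM (adjusted p 0.931). Over the 8 lists, 0 of 138 tested genes were called in any dose comparison by edgeR or DESeq2. By edgeR with 18 libraries 0 had an unadjusted p under 0.05 between 10 µM and control, 5 between 30 µM and control and 2 between the uracil doses. Over all 13865 genes these counts were 96, 595 and 323. With 15 libraries the lists had 6, 5 and 2 such genes, against 656, 602 and 261 of all 13888.

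**Figure D5:**
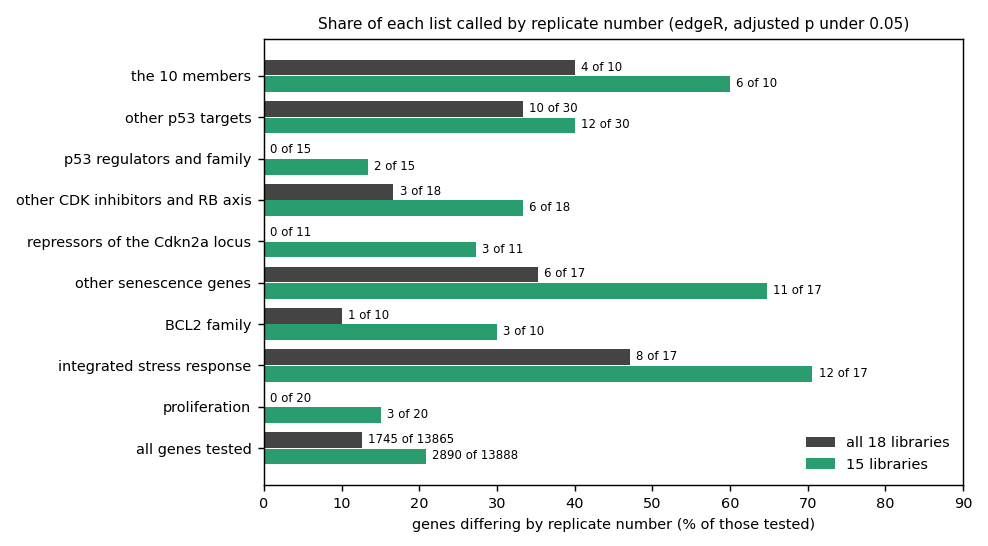
Share of the tested genes in each list that differed by replicate number (edgeR, adjusted p under 0.05) with all 18 libraries (dark) and with 15 (green), beside the share of all genes. The shares of all genes are 12.6% and 20.8%, and the integrated stress response has 8 of 17 and 12 of 17.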

How the data were processed

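Total RNA libraries of MEFs (stranded, ribosomal RNA depleted, paired ends) were compared at 0, 10 and 30 µM uracil, with groups and replicate numbers taken from sample titles. The authors deposited raw counts of read pairs per Ensembl mouse gene, with no normalisation. The submitters' processing notes name FastQC, HISAT2, SAMtools 1.2 and HTSeq, and list GRCh38, a human build, without its role. The annotation release and strand setting are not given in the sources used here. The 5 closing HTSeq entries (pairs outside genes, ambiguous, of low quality, unaligned or not unique) entered neither the library sizes nor the tests, and held 6.85% to 15.5%, 0.503% to 1.64%, 4.79% to 13.1%, 1.72% to 54.2% and 5.59% to 20.2% of pairs in each library. GENCODE M39 named 51731 of 55487 genes. 0 columns lacked a sample.

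Tests were run with edgeR 4.0.16 under R 4.3.3 (filterByExpr on dose, TMM, robust quasi-likelihood fit, two-sided tests, Benjamini-Hochberg adjustment over all genes tested, threshold 0.05). Dose was the only term, or dose plus replicate number for the F test of number. The SE was taken as the size of the log2 fold change over the square root of F. CPM are TMM-scaled with factors from all 18 libraries, log2 CPM used a prior count of 2, and levels between genes were divided by union exon length. Labels do not name cultures, so p-values cover the spread between these samples. The scripts were tested on simulated data.

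The 10 genes, the 8 lists and the markers were chosen with earlier results of these data known. Of each list, the 2 genes with the smallest p by number and the 1 at 30 µM were named, and for Cdkn1a and the member with the smallest p by number, the 5 genes of at least 1 CPM with the most similar pattern. Of these, 1 gene is not reported here. The settings tried were DESeq2 1.42.0 or its size factors, no filter, at least 10 counts in every library, leaving out each library or the 2 or 3 with most unaligned pairs, and replicate number as a block. Gdf15 had the fewest counts of the 10 genes.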

Additional observations from a re-analysis of the deposited data

Results flagged for a closer look

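In 4 of the 30 groups of 6 libraries (10 genes at 3 doses), 1 library lay far from the other 5, beyond Dixon's 95% limit, where chance gives about 1 in 20 (1.5 of 30). At 30 µM, replicate 6 had 154 CPM of Trp53 (77.0 to 103 in the other 5), 203 CPM of Cdkn1a (79.3 to 103) and 153 CPM of Sesn2 (118 to 130.5). In control, replicate 1 had 71.3 CPM of Bax (114 to 120.2 in the other 5). These are the libraries with 37.9% and 54.2% of pairs unaligned, and the part of that in the 4 values was not tested.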

How the results depend on the processing

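The count of 0 genes called held in all 3 dose comparisons under every setting run, and the replicate block changed no call (161, 937 and 588 genes at an unadjusted p under 0.05 in place of 96, 595 and 323). The numbers were not taken as pairs, since 16 and not all of the 18 pairs of same-numbered libraries had a correlation of deviations over 0.1 (lowest −0.10, median 0.40, against a median of −0.065 for other pairs). Both pairs at or under 0.1 held control replicate 1, and without the 3 libraries 12 of 13 pairs were over 0.1 (lowest 0.0040). The medians were then 0.32 for same-numbered and −0.14 for other pairs. At the median, same-numbered libraries were thus more alike, and the SE without the block include differences between numbers. For Ccng1 at 30 µM the SE was 0.12 without and 0.069 with the block. With the block and all libraries the 95% interval at 30 µM left out 0 for Ccng1 (−0.30 to −0.0091) and Bax (0.0014 to 0.36), at adjusted p 0.656 by edgeR, and in 15 libraries it did not (−0.16 to 0.033 and −0.039 to 0.13). Gdf15 at 30 µM against 10 µM had an interval of 0.11 to 0.95 with the block (adjusted p 0.820 by edgeR). In 15 libraries its interval with the block still left out 0 (0.0046 to 0.81, adjusted p 0.877 by edgeR). For Trp53 at 10 µM in 15 libraries the interval with the block was −0.52 to 0.080. Genes called by replicate number were 1745 with all libraries, 2989 with DESeq2, 3287 in 16 libraries, 2890 in 15 and 1272 to 3498 with single libraries left out (3498 without control replicate 1, 3271 without control replicate 6), and the cause was not tested. The log2 fold changes below changed sign with none past the threshold, and the cause was not tested. At 10 µM in 16 libraries, Cdkn2b was −0.027, Ccng1 0.016 and Bax −0.037. In 15 libraries, Mdm2 was −0.014, Cdkn2b −0.023, Ccng1 0.044, Bax −0.036 and Sesn2 −0.011. With the block in 16 libraries, Cdkn2a was −0.041, Cdkn2b −0.0085, Ccng1 0.0055 and Bax −0.020, and with the block in 15, Cdkn2a was −0.0012, Ccng1 0.0052 and Bax −0.00099. At 30 µM in 16 libraries, Mdm2 was −0.026, Cdkn1a −0.058, Sesn2 −0.0014 and Lmnb1 −0.0023, and in 15 they were −0.029, −0.063, −0.0052 and −0.0064. Cdkn1a with the block was −0.011 in 16 and −0.059 in 15. With single libraries left out, the ranges that crossed 0 at 10 µM were −0.019 to 0.053 for Mdm2, −0.023 to 0.11 for Cdkn2a, −0.031 to 0.081 for Cdkn2b, −0.081 to 0.012 for Ccng1, −0.042 to 0.080 for Bax, −0.0037 to 0.059 for Sesn2 and −0.034 to 0.076 for Lmnb1. At 30 µM they were −0.19 to 0.059 for Trp53, −0.030 to 0.041 for Mdm2, −0.12 to 0.21 for Cdkn1a and −0.061 to 0.23 for Lmnb1. Gdf15 was not tested where at least 10 counts were asked of every library. Gdf15 had the fewest counts of the 10 genes, 5 to 52 per library.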

Other observations

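Genes with patterns most like those of Ccng1 and Cdkn1a were sought over the 15 libraries, by the mean absolute difference of log2 CPM after each gene was centred on its own mean. Nearest to Ccng1 (which itself deviated from its mean by 0.14 on average) were Fam111a (difference 0.035), Exoc5 (0.043), Alcam (0.044), Cacna2d1 (0.045) and Rb1cc1 (0.047). Fam111a, which encodes a protease with a role at replication forks, averaged 90.8 CPM in replicate 2 and 68.1 CPM in replicate 5, and Alcam, a cell adhesion gene, 127 and 95.7 CPM. With 18 libraries Fam111a (adjusted p 0.00376), Alcam (0.00481) and Exoc5 (0.0162) were called by number by edgeR, and Cacna2d1 (0.0725) and Rb1cc1 (0.187) were not.

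Nearest to Cdkn1a (average deviation 0.16) were Synpo (0.071), Antxr1 (0.073), Ctnnd1 (0.075), Fpgt (0.080) and Zfp36l2 (0.082). Synpo, an actin-associated gene, averaged 132 CPM in replicate 2 and 107 CPM in replicate 5, and Ctnnd1, the p120 catenin gene, 27.3 and 21.3 CPM. Of these 5, Fpgt (adjusted p 0.0196) was called by number with 18 libraries. None of these 10 genes was on the lists above.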
